A study of Mus musculus with 10 samples.

Results

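The 10 genes described here mark dendritic cells or steer their development, and they were followed across 10 MC38 tumors from 4 treatment groups. They were chosen by gene symbol, and all 10 of the 10 were present in a deposited table of 45777 genes. MC38 is a mouse colon carcinoma line, grown here under the skin of wild-type female C57BL/6 mice bought at 6 weeks of age. The combination group (3 tumors) received YH29407, an inhibitor of the tryptophan-degrading enzyme IDO1, at 100 mg/kg (B.I.D.) together with aPD-1, an antibody that blocks the T cell checkpoint receptor PD-1, at 10 mg/kg (B.I.W.). The YH29407 group (3 tumors) received the inhibitor alone, the aPD-1 group (2 tumors) received the antibody alone, and the control group (2 tumors) received neither agent. The treatment period was 5 days in all 4 groups. Each library came from 1 formalin-fixed, paraffin-embedded tumor, taken whole, so that fewer cells of a type and less RNA per cell could not be told apart. The labels did not say whether the tumors of a group came from separate experiments, and p-values measure only the spread between these tumors.

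Conventional dendritic cells take up tumor antigen and present it to T cells. They depend on the cytokine receptor FLT3, and in tumors their cDC1 subset is known for handing antigen from dead cells to CD8+ T cells. The members cover the steps of this lineage: Zbtb46, a transcription factor that marks conventional dendritic cells, Flt3, the cDC1 regulators Batf3 and Irf8, the cDC2 regulator Irf4, the cDC1 surface receptors Xcr1 and Clec9a, the maturation genes Fscn1 and Cd83, and Siglech, a receptor of plasmacytoid dendritic cells. None of these genes is confined to dendritic cells. Irf8 is also used by macrophages and B cells, Irf4 by activated T cells and plasma cells, Zbtb46 by endothelial cells, Cd83 by B cells, and Fscn1, which bundles actin, by many tumor cells.

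Library totals ranged from 56170804 to 76287659 counts, and all 10 members were among the 21523 genes that passed the filter on low counts. Combination replicate 4 stood apart from the rest. Its counts lay 7.09% on pseudogenes and 2.28% on mitochondrial genes, against at most 3.70% and 0.56% in the other 9 libraries. The median of its Spearman correlations with the remaining tumors was 0.908, where the others had 0.961 to 0.974. The summed level of keratinocyte markers was 1104 and 231 CPM (counts scaled to a library total by TMM, a trimmed mean of ratios) in combination replicates 2 and 3, against 9.26 CPM in combination replicate 4 and 16.2 to 68.9 CPM in the other groups. The labels call the samples colon cells. The 5 epithelial genes Epcam, Krt8, Krt18, Krt19 and Cdh1 summed to between 2.02 and 12.7 CPM per library. Of these, Krt8 and Krt18 did not exceed 0.462 and 0.485 CPM in any library, and Epcam did not exceed 1.59 CPM.

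The members differed widely in level. In TPM, a unit that accounts for gene length, the median over 10 libraries was 143 for Fscn1, 24.1 for Zbtb46 and 14.1 for Irf8, genes that other cells of a tumor also express. It was 3.59 TPM for Cd83, 1.91 TPM for Batf3 and 1.21 TPM for Flt3. Clec9a, Irf4, Xcr1 and Siglech came last, with median levels of 0.319, 0.308, 0.241 and 0.205 TPM. Fscn1 lay above Zbtb46 and Irf8 above Cd83 in every library compared with every other, and all other neighbours in this order had overlapping ranges.

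**Figure D1:**
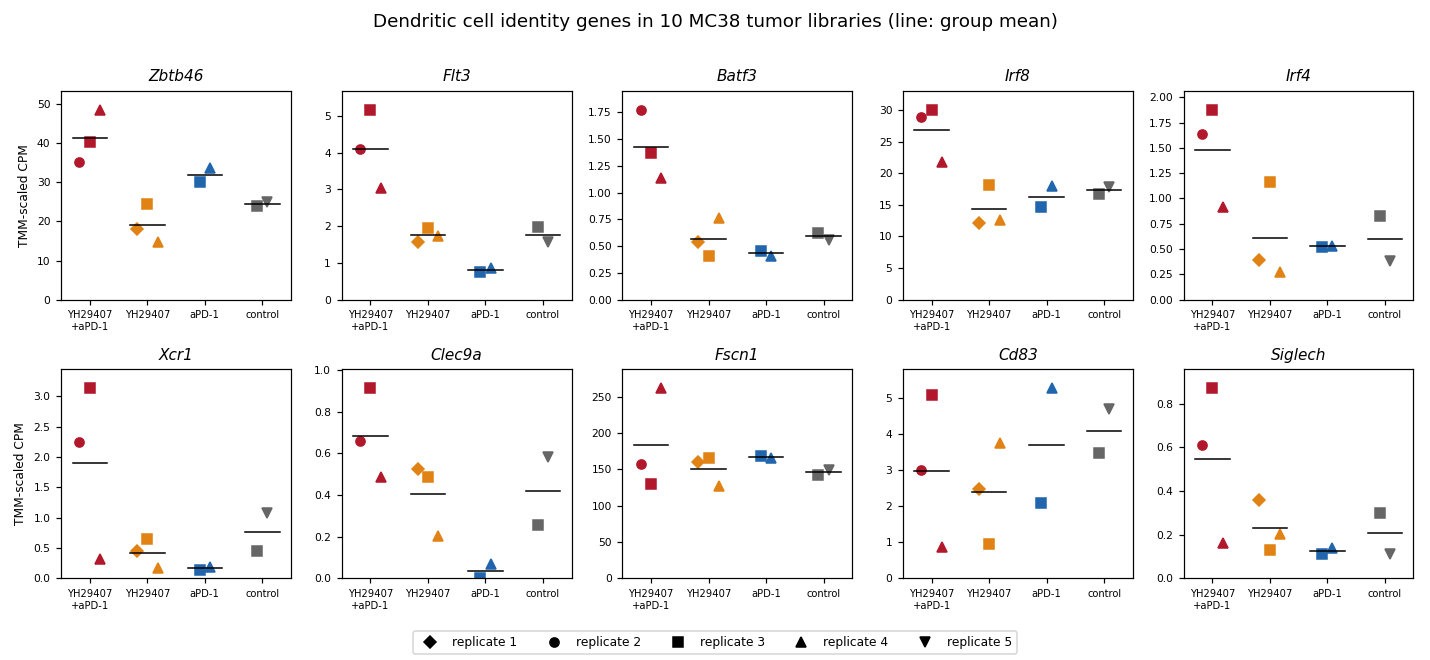
Level of each of the 10 members in each of 10 MC38 tumor libraries, in TMM-scaled CPM on a linear axis from 0, with 1 panel per gene. Points are tumors, symbols give the replicate number and the line is the group mean. In Zbtb46, Flt3, Batf3 and Irf8 the 3 combination tumors lay above all 7 others.

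Zbtb46, Flt3, Batf3 and Irf8, 4 of the 10 members, were higher in every combination tumor than in any of the 7 other tumors. Of all genes tested, 4.78% showed this order. The promoters of these 4 genes are printed here because their levels separated together. Each line holds 300 bases of the mouse GRCm38.p6 (mm10) sequence from RefSeq, read 5′ to 3′ on the gene's strand, from 250 bases before an annotated start to 50 bases after it. Capitals mark matches, on either strand, to 2 motifs, TGANTCA (bound by AP-1 factors, BATF complexes among them) and TTCNNNGAA (bound by STAT factors, which act downstream of cytokine receptors).
Zbtb46 (chr2:181424339-181424638, minus strand): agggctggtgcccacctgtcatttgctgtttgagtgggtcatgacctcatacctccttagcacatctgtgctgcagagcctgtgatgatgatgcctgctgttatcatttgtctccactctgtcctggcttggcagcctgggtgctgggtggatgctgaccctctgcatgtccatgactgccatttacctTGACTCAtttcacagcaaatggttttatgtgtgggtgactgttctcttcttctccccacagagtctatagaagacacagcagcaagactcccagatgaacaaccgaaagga
Flt3 (chr5:147400440-147400739, minus strand): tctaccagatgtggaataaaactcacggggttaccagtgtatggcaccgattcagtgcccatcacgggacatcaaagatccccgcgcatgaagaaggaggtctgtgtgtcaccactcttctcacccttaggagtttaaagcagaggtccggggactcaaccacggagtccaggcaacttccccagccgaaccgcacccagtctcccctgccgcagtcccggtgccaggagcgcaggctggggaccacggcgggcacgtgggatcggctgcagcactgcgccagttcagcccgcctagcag
Batf3 (chr1:191098164-191098463, plus strand): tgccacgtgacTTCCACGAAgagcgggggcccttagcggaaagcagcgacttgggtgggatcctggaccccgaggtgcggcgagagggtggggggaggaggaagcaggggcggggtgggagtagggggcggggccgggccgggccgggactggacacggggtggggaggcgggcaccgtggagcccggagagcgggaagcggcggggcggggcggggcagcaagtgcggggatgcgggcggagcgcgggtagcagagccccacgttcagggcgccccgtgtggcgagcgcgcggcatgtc
Irf8 (chr8:120736108-120736407, plus strand): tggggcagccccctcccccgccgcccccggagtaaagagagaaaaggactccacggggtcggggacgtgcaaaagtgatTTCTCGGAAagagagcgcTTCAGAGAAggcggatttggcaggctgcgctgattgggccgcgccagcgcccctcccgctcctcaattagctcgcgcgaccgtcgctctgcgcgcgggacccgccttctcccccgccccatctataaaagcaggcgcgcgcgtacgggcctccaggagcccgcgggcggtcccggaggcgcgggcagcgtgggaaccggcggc

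Zbtb46 carried TGACTCA at -61 to -55 from the start, in a window that lies inside the annotated span of the gene. Batf3 carried TTCCACGAA at -239 to -231. Irf8 carried 2 such matches, TTCTCGGAA at -171 to -163 and TTCAGAGAA at -153 to -145, and the Flt3 window held no match. Of the 32851 mouse promoter windows searched, 7.81% held TGANTCA and 8.3% held TTCNNNGAA. The other motifs searched, the interferon response element, the composite site of PU.1 with IRF factors, and GGGNNTTCC for NF-kB, were found in none of the 10 windows of 9 members and in 3.44%, 2.72% and 5.82% of all windows. The motifs overlap in no printed window. Among the other members Siglech had 1 match, TTCTCTGAA at -123 to -115. Cd83 had no window and was not searched.

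The combination group was first set against YH29407 alone, which asks what adding aPD-1 to the inhibitor changed. All 10 members had a positive fitted log2 fold change, with a median of 1.17 against 0.04 over all genes tested. With edgeR's quasi-likelihood test, 0 of 10 members and 0.00% of all genes had an adjusted p under 0.05. At an unadjusted p under 0.05, 5 of 10 members were higher and 0 were lower, where 10.6% of all genes tested were higher and 6.84% were lower. The tumors of the groups did not overlap in 4 of 10 members, all higher in the combination, where 10.4% of genes separated in this direction. Those 5 were Zbtb46, Flt3, Batf3, Irf8 and Xcr1. With DESeq2, the model the study used, 4 of 10 members passed an adjusted p under 0.05 (Zbtb46, Flt3, Batf3 and Irf8), as did 6.84% of the genes it tested.

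Zbtb46 (Entrez 72147, chr2:181371009-181493262) encodes a zinc finger repressor that is switched on when precursors commit to conventional dendritic cells. It stood at 35.3, 40.2 and 48.6 CPM in the combination tumors, against 18.0, 24.5 and 14.8 CPM in the YH29407 tumors. The lowest combination tumor lay above the highest YH29407 tumor. The fitted log2 fold change was 1.12 (SE 0.23, unadjusted p = 0.000956, adjusted p = 0.181 with edgeR). The span of Zbtb46 overlaps Zgpat, Lime1, the pseudogene Slc2a4rg-ps and Abhd16b, and a read in a shared exon could have been assigned to either gene. Endothelial cells also express Zbtb46. The sum of 8 endothelial markers did not separate the groups, with 201, 294 and 98.9 CPM in the combination tumors, against 313, 245 and 155 CPM in the YH29407 tumors, and 0 of the 8 had an unadjusted p under 0.05. In other comparisons some of them moved with Zbtb46 and some did not. Against the control group, 2 of the 8 were higher in the combination at an unadjusted p under 0.05 (Cldn5 and Tie1), where 6.98% of all genes were. With aPD-1 alone 2 were higher than in control (Cldn5 and Vwf), where 1.39% of genes were. With YH29407 alone all 8 were positive against control (median log2 fold change 0.74), where Zbtb46 had -0.36 (SE 0.25). In the combination against aPD-1, 4 of the 8 were positive and Vwf was lower (-1.61, SE 0.43), where Zbtb46 had 0.38 (SE 0.25). The part of endothelial cells in the Zbtb46 values was not tested.

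Flt3 (Entrez 14255, chr5:147330741-147400489) encodes the receptor whose ligand keeps dendritic cell precursors growing. It had 4.11, 5.18 and 3.04 CPM in the combination tumors, against 1.56, 1.96 and 1.73 CPM in the YH29407 tumors. The groups did not overlap, and combination replicate 4 was the lowest of its group. Its log2 fold change was 1.23 (SE 0.29, unadjusted p = 0.00213, adjusted p = 0.203 with edgeR). The gene for its ligand, Flt3l, showed no such separation, with 8.65, 7.08 and 13.8 CPM in the combination tumors, against 12.4, 10.4 and 10.04 CPM in the YH29407 tumors (log2 fold change -0.15, SE 0.29).

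Batf3 (Entrez 381319, chr1:191098414-191108943) encodes a basic leucine zipper factor without which cDC1 do not form. Counts were low, between 29 and 140 per library. Batf3 had 1.78, 1.37 and 1.13 CPM in the combination tumors, against 0.539, 0.408 and 0.765 CPM in the YH29407 tumors. These groups did not overlap either, and the log2 fold change was 1.32 (SE 0.37, unadjusted p = 0.00635, adjusted p = 0.218 with edgeR).

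Irf8 (Entrez 15900, chr8:120736358-120756694) encodes the interferon regulatory factor that works with BATF3 in cDC1 and is also needed by plasmacytoid cells. It reached 28.9, 30.1 and 21.7 CPM in the combination tumors, against 12.1, 18.2 and 12.6 CPM in the YH29407 tumors. Every combination tumor exceeded every YH29407 tumor, and the log2 fold change was 0.91 (SE 0.23, unadjusted p = 0.00386, adjusted p = 0.213 with edgeR). Macrophages and B cells also express Irf8. The 8 macrophage markers summed to 800, 985 and 500 CPM in the combination tumors, against 480, 673 and 577 CPM in the YH29407 tumors, and 2 of the 8 were higher at an unadjusted p under 0.05. The 8 B cell markers summed to 11.6, 14.7 and 18.5 CPM in the combination tumors, against 21.5, 18.4 and 23.7 CPM in the YH29407 tumors. The single B cell markers did not all follow their sum. Of the 7 that were tested, 5 were fitted above 0, and the middle value of the 7 was 1.09 on the log2 scale. At an unadjusted p under 0.05 with edgeR, 0 were higher and 1 was lower, Cd79a (-3.02, SE 0.52). The part of these cells in the Irf8 values was not tested.

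The cDC1 surface receptors split the combination group. Xcr1 (Entrez 23832, chr9:123852315-123862029), the receptor for the T cell and NK cell chemokine XCL1, had 2.25, 3.13 and 0.324 CPM in the combination tumors, against 0.456, 0.645 and 0.173 CPM in the YH29407 tumors. Replicates 2 and 3 stood above every YH29407 tumor, and replicate 4, with 18 counts, lay inside the range of that group. The log2 fold change was 2.16 (SE 0.82, unadjusted p = 0.0274, adjusted p = 0.260 with edgeR). With replicate 4 as the only combination tumor it was -0.51. Xcl1 also split this group, with 3.73, 4.96 and 0 CPM in the combination tumors, against 2.43, 3.58 and 1.11 CPM in the YH29407 tumors.

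Clec9a (Entrez 232414, chr6:129408862-129424764) encodes a receptor for actin exposed on dead cells. Its levels were 0.660, 0.912 and 0.485 CPM in the combination tumors, against 0.525, 0.487 and 0.202 CPM in the YH29407 tumors. The groups overlapped, the counts were at most 65, and the log2 fold change of 0.76 (SE 0.81) had an unadjusted p of 0.374. The span of Clec9a lies inside that of Clec12b, which had 49 counts over all 10 libraries.

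Irf4 (Entrez 16364, chr13:30749233-30766981) encodes the regulator of cDC2 and of migrating dendritic cells. It had 1.64, 1.88 and 0.917 CPM in the combination tumors, against 0.387, 1.16 and 0.274 CPM in the YH29407 tumors. YH29407 replicate 3 lay above combination replicate 4, and the log2 fold change was 1.28 (SE 0.60, unadjusted p = 0.0632). Activated T cells express Irf4 as well, and the summed T cell markers moved with it, with 54.5, 58.4 and 26.3 CPM in the combination tumors, against 8.17, 22.3 and 8.47 CPM in the YH29407 tumors. Their part in the Irf4 values was not tested.

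Neither maturation gene separated the groups. Fscn1 (Entrez 14086, chr5:142960355-142973189), whose actin-bundling product shapes the dendrites of mature cells, had 158, 129 and 261 CPM in the combination tumors, against 160, 166 and 128 CPM in the YH29407 tumors. The log2 fold change was 0.28 (SE 0.25), and without combination replicate 4, the highest of all 10 libraries, it was -0.07. Cd83 (Entrez 12522, chr13:43785112-43803133), a surface protein that stabilizes MHC class II and CD86 on mature dendritic cells, had 3.01, 5.09 and 0.881 CPM in the combination tumors, against 2.47, 0.961 and 3.77 CPM in the YH29407 tumors. Here combination replicate 4 was the lowest of all 10 libraries. The log2 fold change was 0.32 (SE 0.68), and it turned to -0.26 without combination replicate 3 and to -0.04 without YH29407 replicate 3.

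Siglech (Entrez 233274, chr7:55768154-55779448), a sialic acid binding receptor of plasmacytoid dendritic cells, followed the pattern of Xcr1 at still lower counts (at most 62). It had 0.609, 0.869 and 0.162 CPM in the combination tumors, against 0.359, 0.132 and 0.202 CPM in the YH29407 tumors. Combination replicate 4 lay within the YH29407 range, and the log2 fold change of 1.24 (SE 0.75) had an unadjusted p of 0.134.

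Combination replicate 4 carried part of this pattern and not the rest. Its level was 1.29 times the mean of replicates 2 and 3 for Zbtb46, and 0.654, 0.719 and 0.735 times that mean for Flt3, Batf3 and Irf8. For Xcr1, Cd83 and Siglech the ratio was 0.121, 0.218 and 0.219. When it was left out, 7 of 10 members had an unadjusted p under 0.05 and a higher level in the combination, where 10.8% of genes did, and Flt3 passed an adjusted p under 0.05 with edgeR, as did 0.846% of genes. As the only combination tumor, which assumes that it varies like the other groups, it gave 2 of 10 members with an adjusted p under 0.05 with edgeR (Zbtb46 and Fscn1), beside 34.4% of all genes, and these were also its only members with an unadjusted p under 0.05, where 20.3% of genes were higher. Without YH29407 replicate 3, Zbtb46 and Irf8 passed with edgeR, as did 2.01% of genes.

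**Figure D2:**
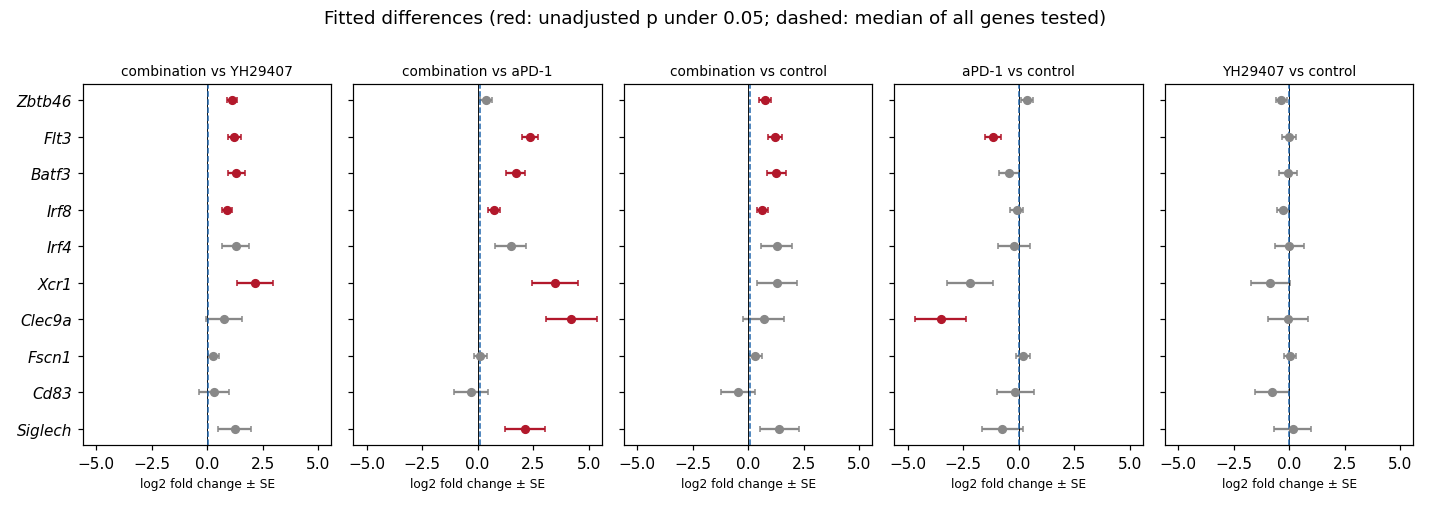
Fitted log2 fold change of each member with its standard error in 5 comparisons, 1 panel each; the name before "vs" is on top of the ratio. Red points have an unadjusted p under 0.05, and the dashed line is the median of all genes tested. Against YH29407 all 10 points lie to the right of 0, with a median of 1.17 against 0.04 for all genes.

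Against aPD-1 alone, which asks what adding YH29407 changed, the members had a median log2 fold change of 1.60, where all genes had 0.10. With edgeR 0 of 10 members and 0.00% of genes passed an adjusted p under 0.05. In all, 6 of 10 were higher at an unadjusted p under 0.05, where 5.76% of genes were, and 8 of 10 had combination tumors above both aPD-1 tumors, where 14.9% of genes did. Flt3 had 4.11, 5.18 and 3.04 CPM in the combination tumors, against 0.739 and 0.850 CPM in the aPD-1 tumors, the lowest Flt3 levels of the series. Its log2 fold change of 2.37 (SE 0.35) had the smallest unadjusted p of any member in this comparison, 9.07e-05, with an adjusted p of 0.565 with edgeR. DESeq2 called 4 of 10 members (Flt3, Batf3, Xcr1 and Clec9a) and 1.43% of genes. Without combination replicate 4, 7 of 10 members had an unadjusted p under 0.05 and a higher level, where 7.47% of genes did, and edgeR called Flt3 and 0.0532% of genes.

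Other cDC1 genes were also low in the aPD-1 tumors. Batf3 had 1.78, 1.37 and 1.13 CPM in the combination tumors, against 0.456 and 0.411 CPM in the aPD-1 tumors (log2 fold change 1.72, SE 0.43, unadjusted p = 0.00359). Xcr1 had 2.25, 3.13 and 0.324 CPM in the combination tumors, against 0.142 and 0.192 CPM, or 9 and 14 counts, in the aPD-1 tumors (log2 fold change 3.49, SE 1.03, unadjusted p = 0.00844). Clec9a had 52, 65 and 27 counts in the combination tumors, against 0 and 5 counts in the aPD-1 tumors. The 0 counts allow a level of up to 0.0472 CPM, by counting error only, and the fitted log2 fold change of 4.22 (SE 1.14, unadjusted p = 0.00515) ranged from 3.26 to 8.59 as single tumors were left out.

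The remaining members that separated from aPD-1 were Irf8, Siglech, Irf4 and Zbtb46. Irf8 had 28.9, 30.1 and 21.7 CPM in the combination tumors, against 14.6 and 18.0 CPM in the aPD-1 tumors (log2 fold change 0.73, SE 0.27, unadjusted p = 0.0237). Siglech had 48, 62 and 9 counts in the combination tumors, against 7 and 10 counts in the aPD-1 tumors (log2 fold change 2.13, SE 0.91, unadjusted p = 0.0440). Irf4 (1.49, SE 0.70) and Zbtb46 (0.38, SE 0.25) also had tumors that did not overlap, with unadjusted p-values of 0.0637 and 0.176. Zbtb46 thus reached 30.1 and 33.7 CPM with aPD-1 alone, closer to the combination than any other separated member.

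Against the control group, which received neither agent, the median log2 fold change of the members was 0.98, where all genes had 0.10. With edgeR 0 of 10 members and 0.00% of genes passed an adjusted p under 0.05, and DESeq2 called Flt3 and 2.03% of genes. In all, 4 of 10 members were higher at an unadjusted p under 0.05, where 6.98% of genes were, and 5 of 10 had all combination tumors above both control tumors, where 15.6% of genes did. Without combination replicate 4 the count was 6 of 10, where 7.86% of genes were higher. With it as the only combination tumor 7 of 10 members had a positive log2 fold change, where the median over all genes was -0.10. Zbtb46 had 35.3 to 48.6 CPM in the combination tumors, against 24.0 and 24.99 CPM in the control tumors (log2 fold change 0.76, SE 0.26, unadjusted p = 0.0174). Flt3 had 3.04 to 5.18 CPM in the combination tumors, against 1.97 and 1.57 CPM in the control tumors (1.21, SE 0.33, unadjusted p = 0.00515). Its separation from control was the largest relative to its standard error among the members. Batf3 had 1.13 to 1.78 CPM in the combination tumors, against 0.625 and 0.556 CPM in the control tumors (1.27, SE 0.42, unadjusted p = 0.0156). Irf8 had 21.7 to 30.1 CPM in the combination tumors, against 16.8 and 17.8 CPM in the control tumors (0.64, SE 0.26, unadjusted p = 0.0398). Irf4 did not overlap either, with 0.917 to 1.88 CPM in the combination tumors, against 0.824 and 0.385 CPM in the control tumors, but its log2 fold change of 1.29 (SE 0.69) had an unadjusted p of 0.0967. These 3 comparisons share the combination tumors and are not independent of each other.

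The single treatments were then set against the control group. With YH29407 alone, 0 of 10 members had an unadjusted p under 0.05 in either direction, where 4.54% of genes did with edgeR, and the tumors overlapped in all 10, where 12.4% of genes separated as higher and 12.8% as lower. The median log2 fold change was -0.05, and the largest in size were -0.85 (SE 0.87) for Xcr1 and -0.77 (SE 0.75) for Cd83. With standard errors of this size a change of 2 times in Xcr1, Cd83, Clec9a, Siglech or Irf4 (SE 0.67) was not detectable.

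With aPD-1 alone, 8 of 10 members had a negative log2 fold change, with a median of -0.32 against 0.00 over all genes. An unadjusted p under 0.05 and a lower level were found for 2 of 10 members, where 1.32% of genes were lower, and 0 of 10 passed an adjusted p under 0.05 with edgeR or DESeq2, which called 0.00% and 0.247% of genes. Flt3 had 0.739 and 0.850 CPM in the aPD-1 tumors, against 1.97 and 1.57 CPM in the control tumors (log2 fold change -1.15, SE 0.35, unadjusted p = 0.0101). Clec9a had 0 and 5 counts in the aPD-1 tumors, against 18 and 41 counts in the control tumors (log2 fold change -3.51, SE 1.15, unadjusted p = 0.0142). Leaving out single tumors moved the Clec9a value between -7.87 and -2.59. Xcr1 was at 0.142 and 0.192 CPM in the aPD-1 tumors, against 0.454 and 1.08 CPM in the control tumors (log2 fold change -2.19, SE 1.03, unadjusted p = 0.0625). Tumors did not overlap in 4 members that were lower (Flt3, Batf3, Xcr1 and Clec9a) and in 2 that were higher (Zbtb46 and Fscn1), where 21.0% and 20.9% of all genes separated in these directions. Batf3 had a log2 fold change of -0.44 (SE 0.45), Zbtb46 of 0.38 (SE 0.28) and Fscn1 of 0.19 (SE 0.31).

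The fitted effect of aPD-1 was positive with YH29407 for all 10 members and negative without it for 8 of them, all but Zbtb46 and Fscn1, and the interaction term tested the difference. It was positive for all 10 members, with a median of 1.62 on the log2 scale against 0.04 over all genes. At an unadjusted p under 0.05 it was positive for 5 of 10 members, where 3.78% of genes were, and 0 of 10 members and 0.00% of genes had an adjusted p under 0.05 with edgeR. DESeq2 called Flt3 and 0.807% of genes. The interaction was 2.38 for Flt3 (SE 0.45, unadjusted p = 0.000593), 1.77 for Batf3 (SE 0.59, unadjusted p = 0.0151) and 1.0 for Irf8 (SE 0.37, unadjusted p = 0.0245). It was 4.35 for Xcr1 (SE 1.32, unadjusted p = 0.00964) and 4.27 for Clec9a (SE 1.39, unadjusted p = 0.0139), which rest on few counts in the aPD-1 tumors. Leaving out single tumors moved it between 3.58 and 4.84 for Xcr1 and between 3.31 and 8.63 for Clec9a, with the highest value without aPD-1 replicate 4.

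Averaged over both backgrounds, tumors with aPD-1 were compared with tumors without it. Here Zbtb46 was the only member with an unadjusted p under 0.05, beside 5.17% of genes that were higher. Its 5 tumors with aPD-1 (35.3, 40.2, 48.6, 30.1 and 33.7 CPM) all lay above its 5 tumors without it (18.0, 24.5, 14.8, 24.0 and 24.99 CPM), an order that 1.36% of genes showed. The log2 fold change was 0.75 (SE 0.18, unadjusted p = 0.00261, adjusted p = 0.479 with edgeR), and DESeq2 called Zbtb46 and 1.4% of genes. The endothelial genes Cldn5 (1.13, SE 0.33, unadjusted p = 0.00754) and Vwf (0.75, SE 0.31, unadjusted p = 0.0382) were higher in the same comparison, though their tumors overlapped, and their part in the Zbtb46 value was not tested. Zbtb46 differed in this from Flt3, whose mean effect was 0.04 (SE 0.23), the average of 2 effects of opposite sign. The other log2 fold changes were 0.44 (SE 0.29) for Batf3, 0.41 (SE 0.18) for Irf8, 0.54 (SE 0.47) for Irf4, -0.02 (SE 0.52) for Xcr1 and -1.38 (SE 0.68) for Clec9a, which moved between -3.56 and -0.93 as single tumors were left out. They were 0.24 (SE 0.20) for Fscn1, 0.09 (SE 0.54) for Cd83 and 0.26 (SE 0.60) for Siglech, and in all of these the tumors overlapped.

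The other genes of the dendritic cell network, taken as 6 lists from textbook knowledge, were read in the combination against YH29407 alone. In each of them 0 genes had an adjusted p under 0.05 with edgeR. Their counts at an unadjusted p under 0.05 stand beside 10.6% of all genes that were higher and 6.84% that were lower. The counts of the shared, cDC2, maturation and plasmacytoid lists were near these shares. Of 10 genes shared by conventional dendritic cells, 2 were higher and 1 was lower at an unadjusted p under 0.05, and the median of their log2 fold changes was 0.63. Ciita, the master regulator of MHC class II, had 17.8, 18.7 and 13.6 CPM in the combination tumors, against 3.91, 3.13 and 3.06 CPM in the YH29407 tumors (log2 fold change 2.31, SE 0.46). Itgax, which encodes CD11c, had 76.9, 116 and 32.6 CPM in the combination tumors, against 42.6, 29.6 and 26.1 CPM in the YH29407 tumors (1.20, SE 0.42). Ly75, which encodes the endocytic receptor DEC-205, was the gene with a lower level (-0.66, SE 0.19), and H2-DMb2, a class II peptide loading gene, had 0.65 (SE 0.30).

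Of 14 further cDC1 genes, 4 were higher and 1 was lower at an unadjusted p under 0.05 (median log2 fold change 0.51). Itgae, which encodes CD103, had 4.67, 5.34 and 1.56 CPM in the combination tumors, against 1.24, 1.53 and 0.880 CPM in the YH29407 tumors (log2 fold change 1.66, SE 0.48). Gcsam had a log2 fold change of 1.96 (SE 0.65), Cd24a of 2.55 (SE 0.93) and Tlr11, a receptor for microbial profilin, of 1.79 (SE 0.66). The gene that was lower was Nfil3, a transcription factor needed for cDC1 (-0.96, SE 0.41). Of 12 cDC2 genes, 1 was higher, the fatty acid receptor gene Ffar2 (3.10, SE 0.57), and the list's median was 0.43. Cd300a, Clec10a and Sirpa had log2 fold changes of 0.75 (SE 0.39), 1.11 (SE 0.81) and 0.45 (SE 0.33).

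Of 23 maturation genes, 22 passed the filter, of which 4 were higher and 1 was lower (median log2 fold change 0.65). Relb, the NF-kB subunit of mature dendritic cells, had 82.0, 63.1 and 141 CPM in the combination tumors, against 26.8, 54.1 and 35.7 CPM in the YH29407 tumors (log2 fold change 1.29, SE 0.35). Traf1, a signalling adaptor of TNF receptors, and Marcksl1 had 1.01 (SE 0.41) and 0.62 (SE 0.26), and Nudt17 had -1.33 (SE 0.42). Of 12 plasmacytoid genes, 2 were higher (median 0.94). Spib, a transcription factor of plasmacytoid and B cells, had 64.1, 58.0 and 80.1 CPM in the combination tumors, against 0.456, 5.39 and 0.952 CPM in the YH29407 tumors (log2 fold change 4.89, SE 0.89). Spib was also at 19.8 and 38.1 CPM in the aPD-1 tumors and at 14.4 and 26.8 CPM in the control tumors. Ly6d, which keratinocytes also express, had 6.52, 3.34 and 0 CPM in the combination tumors and at most 0.0994 CPM elsewhere. Its first 2 values fell in the tumors with the most keratinocyte RNA, whose part in them was not tested. Tlr9 and Bst2 had log2 fold changes of 0.84 (SE 0.39) and -0.41 (SE 0.20).

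Of 10 ligands, growth factor receptors and regulators, 3 were higher and 0 were lower (median log2 fold change 0.55). Csf2rb, the beta chain of the GM-CSF receptor, had 63.5, 88.9 and 42.1 CPM in the combination tumors, against 24.7, 36.5 and 35.0 CPM in the YH29407 tumors (log2 fold change 1.02, SE 0.29). Its partner chain Csf2ra had 1.23 (SE 0.39), the repressor gene Bcl6 had 0.69 (SE 0.30), and Tslp, an epithelial cytokine, had 3.27 (SE 1.62). These list medians depended on combination replicate 4. Without it they were 0.88 for the shared, 1.03 for the cDC1, 0.87 for the cDC2, 0.93 for the maturation, 1.23 for the plasmacytoid and 0.77 for the ligand and regulator genes. With it as the only combination tumor they were -0.63, -0.92, -0.24, -1.14, 0.00 and -0.02 in the same order, where the median over all genes in that fit was -0.21.

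**Figure D3:**
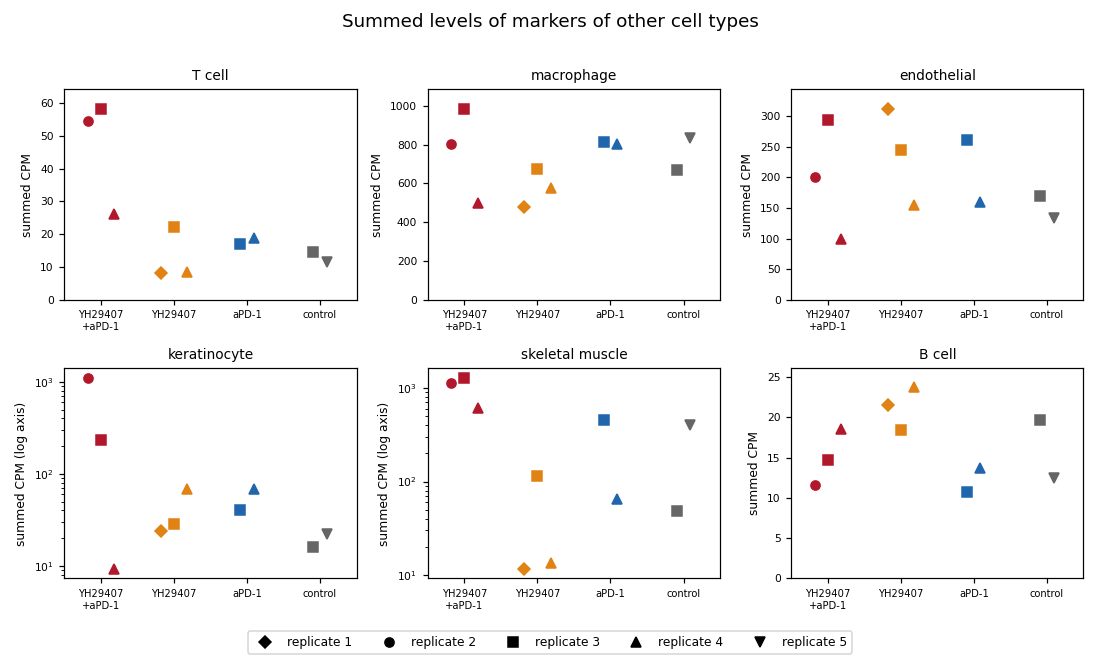
Summed CPM of marker genes of 6 other cell types in each tumor (points, symbols give the replicate number), by group; the keratinocyte and skeletal muscle panels have a log axis. The T cell sums were 26.3 to 58.4 CPM in the combination tumors, above the 8.17 to 22.3 CPM of the 7 others, and the keratinocyte sum was highest in combination replicate 2.

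Markers of some other cells moved with the members, and those of others did not. At an unadjusted p under 0.05, 10.6% of all genes were higher in the combination than in YH29407 alone. Of 9 T cell markers, 8 were higher at this threshold. Their sum was above all 7 other tumors in the 3 combination tumors, as were Zbtb46, Flt3, Batf3 and Irf8, an order that 4.78% of all genes showed. The T cell sum was 26.3 to 58.4 CPM in the combination tumors, against 16.9 and 18.7 CPM in the aPD-1 tumors and 14.5 and 11.4 CPM in the control tumors. Of 7 skeletal muscle markers, 6 were higher, and they summed to 1122, 1282 and 617 CPM in the combination tumors, against 11.6 to 449 CPM in the 7 others. Of 8 keratinocyte markers, 6 were higher, and combination replicate 4 had 3 of them at 0 counts, Krt5 among them. Langerhans cells, the dendritic cells of the epidermis, were looked for through Cd207, which had 0.178, 0.252 and 0.216 CPM in the combination tumors and at most 0.151 CPM in the others. At these low levels its log2 fold change against YH29407 was 2.54 (SE 1.86, unadjusted p = 0.206 with edgeR). Of the 5 monocyte markers, 0 had a positive log2 fold change against YH29407. Only Fn1 among them had an unadjusted p under 0.05 with edgeR (-1.14, SE 0.29). Against aPD-1, 4 of the 5 were positive, with a median of 0.98, and Fn1 was lower (-0.79, SE 0.32). The 5 markers summed to 1422 to 2250 CPM in the combination tumors, against 2450 to 5352 CPM in the 7 others. The B cell and endothelial sums overlapped between the combination and YH29407 tumors. The part of skin, muscle or T cell RNA in the members' levels was not tested.

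**Figure D4:**
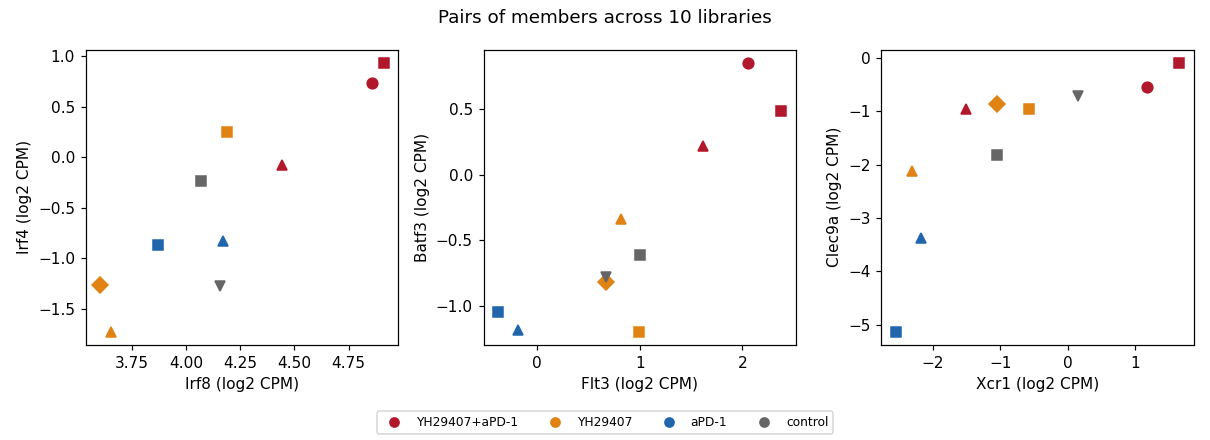
Log2 CPM of 3 pairs of members in 10 tumors (points, coloured by group; symbols give the replicate number as in the plot of members by library). Pearson's r over the 10 tumors was 0.88 for Irf8 with Irf4 and 0.78 for Xcr1 with Clec9a, and in Flt3 with Batf3 the 3 combination tumors lie apart from the 7 others, among which r was 0.50.

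Across the 10 tumors 45 pairs of members were compared on log2 CPM, and 36 had a positive Pearson correlation. Treatment group, library depth and combination replicate 4 are shared by both genes of a pair, so that a correlation describes these tumors. After adjustment over the 45 pairs, 3 had a permutation p under 0.05 for r: Irf8 with Irf4, Flt3 with Batf3 and Flt3 with Clec9a. Irf8 and Irf4, the 2 interferon regulatory factors, had r = 0.88 and rho = 0.87 (adjusted permutation p = 0.0209 for r), with r = 0.72 without the 2 tumors farthest from the median of Irf8. Their r was 0.65 in the 7 tumors outside the combination group and 0.77 for deviations from the group means, so that they varied together within groups as well. In Flt3 with Batf3 the combination tumors formed a cluster of their own, and r was 0.50 in the 7 other tumors and 0.13 for deviations from the group means. Flt3 with Clec9a had r = 0.83 and rho = 0.67, with 0.72 without the 2 farthest tumors, 0.86 in the 7 tumors outside the combination group and 0.26 for deviations from the group means. Xcr1 and Clec9a, the 2 cDC1 receptors, ranked the tumors almost alike (rho = 0.96, adjusted permutation p = 0.0054). Their r was 0.78 (adjusted permutation p = 0.0522), with 0.79 without the 2 farthest tumors, 0.83 in the 7 tumors outside the combination group and 0.66 for deviations from the group means. The count of 3 pairs was 0 without combination replicate 2 or replicate 3 and 9 without replicate 4.

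The genes most like each member, by Pearson's r over the 10 tumors among 17650 named genes, were of mixed kinds. Xcr1 was followed by Dock8 (r = 0.931), Itgax (0.926) and Itgae (0.923), and Siglech by Pld4 (0.961), Rassf5 (0.956) and Grk3 (0.946). Flt3 was nearest to Cxxc4 (0.958), Ffar2 (0.956) and Shfl (0.954), and Clec9a to Ifnlr1 (0.902), Plcxd1 (0.897) and Cxxc4 (0.896). T cell receptor segments ranked high for 3 members, Trbj1-5 for Irf8 (0.964, beside Dnah8 at 0.970 and Zdhhc23 at 0.964), Traj6 for Irf4 (0.969, beside Tmem229b at 0.964 and Pcdhgb6 at 0.950) and Trav14d-3-dv8 for Cd83 (0.942, beside Gpr137b at 0.946 and its pseudogene Gpr137b-ps at 0.911). Batf3 was nearest to Grhl3 (0.967), a transcription factor of the epidermis, Gsdma (0.965) and Pdlim4 (0.958). Zbtb46 was nearest to Zfp362 (0.975), Nfatc1 (0.971) and LOC115486180 (0.957), and Fscn1 to Rnf215 (0.981), Rmrp (0.976) and Ddx23 (0.970).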

How the data were processed

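Bulk RNA-seq was measured in 10 tumors (combination 3, YH29407 3, aPD-1 2, control 2), grouped by their labels. The labels name 2 library kits, SureSelectXT RNA Direct and SMARTER mRNA-Seq, and the study's methods name the first. The authors sequenced paired reads of 100 bp and, per the submitters' processing notes and the methods, used HISAT2, StringTie and the mm10 build. Whether counting used strand is not given in the sources used here. The deposited table holds whole read counts per gene, and the FPKM and TPM values that the authors derived from the same reads. Its columns were matched to samples by title. Files that hold no measurements were not used.

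Counts were tested with edgeR 4.0.16 (R 4.3.3): TMM scaling, the filterByExpr filter by group (minimum count 10, minimum total 15), 1 mean per group, quasi-likelihood tests of contrasts and Benjamini-Hochberg adjustment over 21523 genes at 0.05. Levels are TMM-scaled CPM, and log2 CPM used a prior count of 2. Counting limits cover counting error only, 3 counts being the level that a count of 0 allows. DESeq2 1.42.0 and limma 3.58.1 on log2(FPKM + 1) and log2(FPKM + 0.1) served as alternatives, beside RLE scaling, no filter, only the groups compared, a replicate block, each tumor left out and combination replicate 4 alone. Correlations used 100000 permutations, 2-sided. Promoters came from RefSeq windows. On simulated counts for the combination against YH29407 (21523 genes), 6.12% of genes changed 2 times, 39.6% changed 4 times and 71.4% changed 16 times were recovered at an adjusted p under 0.05. A library that stands apart was not simulated.

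All 10 members were named with their levels. Fold changes were given for every member in the combination against YH29407 and in tumors with against without aPD-1, and elsewhere where the unadjusted p was under 0.05 or the tumors did not overlap; a few others are given for context. Of each list, up to 4 genes with the smallest p in the combination against YH29407 were named, with Flt3l, Xcl1 and, added after their values were seen, Nfil3, and per member the 3 genes most like it. The members and lists were chosen with earlier results of these data known.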

Additional observations from a re-analysis of the deposited data

Results flagged for a closer look

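The fitted effect of aPD-1 on Flt3 and on Batf3 was positive with YH29407 and negative without it. Each combination tumor lay above each YH29407 tumor, an order that 10.4% of all genes showed. Each aPD-1 tumor lay below each control tumor, as in 21.0% of all genes, and the share of genes with both orders was not counted. For Batf3 the log2 fold change of aPD-1 against control was -0.44 (SE 0.45). The interaction, the difference between the aPD-1 effects with and without YH29407, was 2.38 for Flt3 and 1.77 for Batf3 on the log2 scale. Its unadjusted p-values were 0.000593 and 0.0151 and its adjusted p-values 0.644 and 0.725 with edgeR. It ranged from 2.18 to 2.56 for Flt3 and from 1.60 to 2.07 for Batf3 as single tumors were left out. The aPD-1 effect without YH29407 rests on 2 tumors against 2.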

How the results depend on the processing

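With edgeR 0 members had an adjusted p under 0.05 in any of the 7 comparisons, and this held with RLE scaling, no filter, limma on FPKM and the replicate block, and with only the groups compared in the 5 comparisons of 2 groups. DESeq2 called 4 in the combination against YH29407, 4 against aPD-1, 1 against control, 1 with against without aPD-1 and 1 in the interaction. With combination replicate 4 alone the counts were 2, 1, 1, 2 and 1 in the same order, in fits that called between 21.0% and 34.4% of all genes. Leaving out single tumors gave 0 to 2 against YH29407 and 0 to 1 against aPD-1. The causes were not tested.

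With combination replicate 4 alone, values against YH29407 turned to -0.51 for Xcr1, -1.56 for Cd83 and -0.62 for Siglech, and values with against without aPD-1 to -0.24 for Flt3, -0.85 for Cd83 and -0.68 for Siglech. Without single tumors, the values against YH29407 ranged from -0.26 to 0.82 for Cd83 and from -0.07 to 0.53 for Fscn1. With against without aPD-1 they ranged from -0.06 to 0.13 for Flt3, from -0.29 to 0.35 for Xcr1, from -0.32 to 0.34 for Cd83, from -3.56 to -0.93 for Clec9a and from -0.02 to 0.67 for Siglech. That comparison also turned for Xcr1 with limma on FPKM (0.08 with a pseudocount of 1, 0.15 with 0.1) and for Cd83 (-0.03 with 0.1).

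With the replicate block, 1 member was higher at an unadjusted p under 0.05 against YH29407 (beside 1.93% of genes) and 2 against aPD-1 (1.998%). Higher members numbered 0 against control (1.185% of genes), 0 with against without aPD-1 (1.199%) and 1 in the interaction (1.38%). With aPD-1 against control 0 members were lower at this threshold. The block turned the values with against without aPD-1 to -0.02 for Flt3 and 0.73 for Xcr1. Deviations of same-numbered tumors from their group means had r between 0.00 and 0.21, and those of differently numbered tumors between -0.21 and 0.11. In a group of 2 tumors the deviations mirror each other, so these values cannot decide whether the numbers mark pairs. The main fit did not treat the numbers as pairs. Correlated pairs numbered 3, against 11 on log2(FPKM + 0.1) and 0 to 9 without single tumors. Counts under 20 per library limit Xcr1, Clec9a and Siglech most.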
